A study of Mus musculus with 19 samples.

Results

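Potassium channels and the hyperpolarization-activated cyclic nucleotide-gated (HCN) channels were examined in RNA-seq profiles of cells sorted from sensory ganglia given α9 integrin and kindlin-1 or GFP. Members were the protein-coding genes of the deposited gene list whose symbol begins with Kcn or with Hcn and a digit. They numbered 45 of the 12629 genes with values, 10750 of which were protein coding. The symbol rule also took in auxiliary subunits and Kcnrg, a cytosolic regulator of Kv channel assembly.

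The left lower cervical dorsal root ganglia (DRGs) received AAV5-fGFP (the GFP groups) or, for α9k1, a mixture of AAV5-α9-V5 with AAV5-kindlin1-GFP. The dorsal roots were either left intact (naive) or crushed at the time of injection (crush), and GFP-positive cells were sorted by FACS 8 weeks later. Libraries numbered 5 for GFP-naive and 6 for α9k1-naive, and 4 for each crush group, so that every group carried AAV5 and a green fluorescent label. The study's methods describe adult male Lewis rats. By contrast, the sample labels name C57BL/6 mice, with the genotypes wild-type and a9k1 overexpression. Viral promoters (CMV for fGFP and kindlin1-GFP, CAG for α9-V5) drove the transgenes, and cells were sorted on the GFP carried by kindlin-1, so a sorted cell need not have contained the α9 vector. The study describes the libraries of a group as biological replicates, and the labels do not tie them to animals, so the p-values measure the spread between these libraries.

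Libraries had between 36.4 and 87.6 M read pairs, and 47.5% to 54.1% of reads were aligned to the mouse genome. The values are log2 expression after the authors' normalization with cqn for gene length and depth, written below as levels, and their counting error is unknown. The targeted genes followed the labels, with mean levels of kindlin-1 (Fermt1) of 0.62 in GFP-naive, 5.58 in α9k1-naive, 0.57 in GFP-crush and 7.17 in α9k1-crush, and of α9 integrin (Itga9) of 2.11, 3.87, 1.51 and 6.59 in the same order. All 8 pan-neuronal genes examined were present, but so were markers of glia, macrophages, endothelial and mural cells and fibroblasts. The summed level (2 to the power of each value, added) of 12 glial markers exceeded that of the 8 pan-neuronal genes in every group. It was 57937 to 74928 against 8806 to 11242 in GFP-naive, and 82764 to 117177 against 6511 to 8288 in α9k1-naive. In such bulk samples, fewer cells of a type and less RNA per cell cannot be told apart.

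Potassium channels carry the outward current that sets the resting potential of a neuron and ends its action potentials, and HCN channels carry an inward cation current that opens on hyperpolarization and speeds repetitive firing. A voltage-gated (Kv) channel is a tetramer of α subunits, to which β subunits or calcium-binding KChIP proteins attach, and the silent subunits (Kv5, Kv6, Kv8 and Kv9) open only when assembled with Kv2 subunits. In DRG neurons, Kv1 channels restrain repetitive firing and lie beside the nodes of Ranvier in myelinated axons, tandem-pore (K2P) channels carry background current, and loss of several of these channels after peripheral nerve injury is associated with hyperexcitability.

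Mean levels over all 19 libraries ran from 1.59 for Kcnj8 to 6.69 for Kcnip2, with a median of 3.63, and 13 of the 45 members lay above the median of all genes (4.37). The values are normalized for gene length. Between 3.87% and 4.05% of aligned bases differed from the mouse reference, and how far this lowers the level of single genes was not tested, so the order of levels between genes is approximate. The member with the highest mean level over all libraries in its family was Kcnip2 for Kv4, Kcnab2 for Kv1 (mean level 6.33), Kcnn4 for the calcium- or sodium-activated channels (5.16), Kcns3 for the silent subunits (4.91) and Kcnk1 for the K2P channels (4.74). It was Hcn2 for the HCN channels (4.49), Kcnh6 for Kv10 to Kv12 (4.08), Kcnj12 for the inward rectifiers or Kir channels (3.65), Kcnq5 for Kv7 (3.61) and Kcnc4 for Kv3 (2.89), and the single Kv2 gene, Kcnb2, averaged 2.82. These orders differed between groups in 7 families. The highest mean was that of Kcnk4 in both naive groups, Kcns1 and Kcnh2 in both crush groups, Kcna1 in both GFP groups, Kcnj10 in each group other than α9k1-crush, and Kcnn1 and Kcnc1 in α9k1-crush. Within groups, the median SD of the members was between 0.29 and 0.38, against 0.20 to 0.24 for all genes. Every member had passed the authors' filter on low counts, which a gene can pass through the groups where it is high. This applies most to Kcnj8 and Kcnv1, with levels of 0.06 to 0.74 and of 0.31 to 2.07 in α9k1-naive.

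Group means were lowest in α9k1-naive for 22 of the 45 members (48.9%), against 27.8% of all genes, and highest in α9k1-crush for 24 members (53.3%), against 31.6% of all genes. Differences were tested in 1 limma fit across all 12629 genes and 19 libraries, in which 3 principal components summarizing 48 Picard metrics of the libraries were covariates. Calling a gene required an adjusted p (Benjamini-Hochberg) under 0.1, and log2FC denotes the group difference with the covariates held equal. The threshold is that of the study. Between groups lay 34.5%, 52.2% and 74.5% of the variance of the 3 components. In all, 22 members were called in at least 1 of the 4 comparisons of groups (48.9%, against 44.4% of all genes) and 23 in none.

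In the 2 comparisons that share the α9k1-naive libraries, 6 members were called in opposite directions, falling with α9k1 alone and rising with crush in α9k1 ganglia. They make up 13.3% of the members, and the same pattern was found in 3.34% of all genes. The reverse pattern, higher and then lower, was found for 2 members (4.44%), Kcnn3 and Kcnn4, against 2.80% of all genes. The 6 were Hcn2, Kcna1, Kcnab1, Kcnj8, Kcnk1 and Kcns1, and because of the shared libraries the 2 calls are not independent. The 150 bases before the transcription start are shown for the 4 of them that have a single start in the RefSeq promoter table, as the sequence context of genes with the same pattern of calls. They are from the mouse reference (GRCm38.p6), 5′ to 3′ on the strand of the gene, and capitals mark a GC box (GGGCGG or, on the other strand, CCGCCC). Kcns1 lies at chr2:164171114-164171263 on the minus strand, Hcn2 at chr10:79716484-79716633 on the plus strand, Kcnk1 at chr8:125994952-125995101 on the plus strand and Kcnj8 at chr6:142571615-142571764 on the minus strand.
Kcns1: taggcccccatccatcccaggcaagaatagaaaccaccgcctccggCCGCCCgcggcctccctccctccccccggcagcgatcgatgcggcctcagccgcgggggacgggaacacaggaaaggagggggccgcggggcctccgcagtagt
Hcn2: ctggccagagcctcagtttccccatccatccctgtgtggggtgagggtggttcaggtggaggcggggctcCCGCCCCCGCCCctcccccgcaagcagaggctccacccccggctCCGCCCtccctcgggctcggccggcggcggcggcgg
Kcnk1: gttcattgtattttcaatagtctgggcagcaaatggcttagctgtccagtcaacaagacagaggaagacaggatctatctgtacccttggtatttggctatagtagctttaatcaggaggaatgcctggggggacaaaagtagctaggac
Kcnj8: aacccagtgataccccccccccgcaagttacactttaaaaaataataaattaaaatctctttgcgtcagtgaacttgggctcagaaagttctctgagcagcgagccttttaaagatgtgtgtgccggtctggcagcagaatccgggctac
These stretches differed in base composition, with a GC content of 72.0% for Kcns1, 76.7% for Hcn2, 44.7% for Kcnk1 and 46.7% for Kcnj8. Of the 45 members, 35 matched the promoter table, and 4 motifs were searched on both strands in the 250 bases before the first listed start. The GC box was found in 18 of the 35 (51.4%) and in 32.9% of 27025 promoters, the AP-1 motif TGANTCA in 3 (8.57%, against 6.87%), the E-box CACGTG in 1 (2.86%, against 6.05%) and the cyclic AMP response element TGACGTCA in 0 (against 1.62%). No motif overlaps another, and the motifs and the printed set were chosen after the values were seen.

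**Figure D1:**
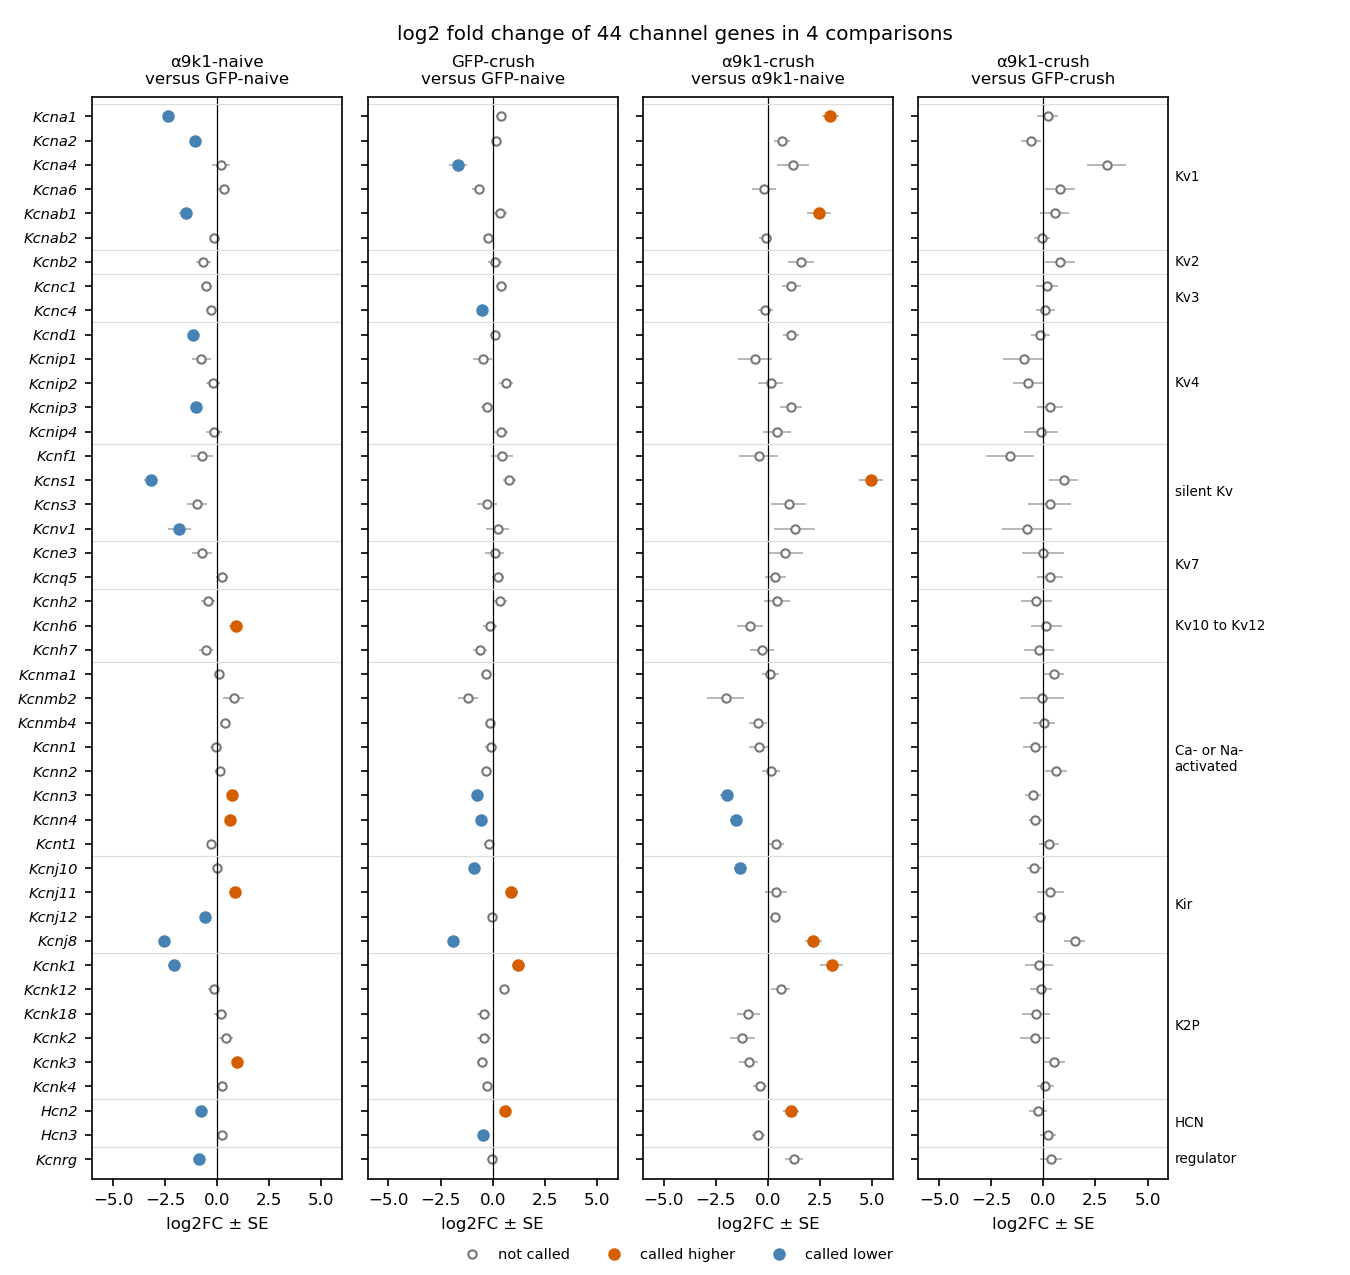
Log2 fold change of 44 of the 45 channel genes in the 4 comparisons, by channel family (x axis log2FC at equal covariates, whiskers the standard error of the fit). Filled points were called at an adjusted p under 0.1, and they number 17, 10, 9 and 0 from left to right.

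The first question was whether α9k1 without crush changes channel levels in the sorted cells. The α9k1 and GFP groups differ in kindlin-1, in the number of vectors and in the form of GFP as well as in α9. In α9k1-naive compared with GFP-naive, 12 of the 45 members were called lower (26.7%), against 17.6% of all genes, and 5 were called higher (11.1%), against 11.4% of all genes. The median log2FC of the members was -0.29, against -0.08 for all genes. It was -0.21 with quantile normalization, -0.25 with median-centred libraries and -0.17 with the GC and length trend removed. Those of all genes were then -0.04, -0.03 and -0.04. The genes called lower included the Kv1 subunits Kcna1, Kcna2 and Kcnab1, the silent subunits Kcns1 and Kcnv1, the A-type channel Kcnd1 with its partner Kcnip3, and the background channel Kcnk1. Those called higher were Kcnk3, Kcnh6, Kcnj11, Kcnn3 and Kcnn4.

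Kcns1, which encodes the silent subunit Kv9.1 of large sensory neurons, changed most. Its levels were 5.39, 4.48, 5.01, 4.60 and 4.41 in the 5 GFP-naive libraries, and ranged from 1.41 over a median of 1.61 to 2.03 in the 6 α9k1-naive libraries. No library of one group reached the other, and the log2FC was -3.18 (SE 0.32, adjusted p = 4.9e-06). The other silent subunits had smaller differences. Kcnv1 (Kv8.1) fell by 1.82 on the log2 scale (SE 0.54, adjusted p = 0.0267), from levels of 2.25 to 3.33 in GFP-naive to 0.31 to 2.07 in α9k1-naive, without overlap. Kcns3 (Kv9.3) had a log2FC of -0.96 (SE 0.47, adjusted p = 0.162) and Kcnf1 (Kv5.1) one of -0.72 (SE 0.52, adjusted p = 0.349), and neither was called.

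Of the 6 genes of the Kv1 family, 3 were called lower and none higher. Kcna1, the Kv1.1 subunit of low-threshold, slowly inactivating current, had levels of 6.13, 6.25, 6.64, 6.11 and 6.45 in GFP-naive. In α9k1-naive its levels ran from 3.67 over a median of 4.02 to 4.30, well below every GFP-naive library, and the log2FC was -2.38 (SE 0.23, adjusted p = 3.22e-06). Kcna2, the Kv1.2 subunit that assembles with Kv1.1 in myelinated axons, lay between 3.43 and 3.58 in GFP-naive and between 1.75 and 2.85 in α9k1-naive, and fell by 1.09 on the log2 scale (SE 0.22, adjusted p = 0.00231). Kcnab1, an auxiliary β subunit of Kv1 channels, fell by 1.52 on the log2 scale (SE 0.32, adjusted p = 0.00326), from 5.40 to 5.88 in GFP-naive to 3.68 to 4.99 in α9k1-naive, again without overlap. Its paralog Kcnab2, at higher level, had a log2FC of -0.15 (SE 0.18, adjusted p = 0.585), and Kcna4 and Kcna6 had log2FCs of 0.17 and 0.31 and were not called.

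In the Kv4 group, Kcnd1 (Kv4.1) fell by 1.18 on the log2 scale (SE 0.21, adjusted p = 0.001). It lay between 5.51 and 5.85 in GFP-naive and between 4.38 and 5.16 in α9k1-naive. Kcnip3, which encodes the KChIP3 protein also known as DREAM, fell by 1.04 (SE 0.29, adjusted p = 0.0184), from 5.05 to 5.77 down to 4.26 to 4.69. The groups did not overlap for either gene. The remaining KChIP genes Kcnip1, Kcnip2 and Kcnip4 had log2FCs between -0.76 and -0.16 and were not called.

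Kcnk1 encodes the weakly conducting K2P channel TWIK-1. Its levels were 5.30, 4.50, 5.07, 4.66 and 4.26 in GFP-naive and ranged from 2.47 over a median of 2.93 to 3.73 in α9k1-naive, and it fell by 2.05 on the log2 scale (SE 0.31, adjusted p = 0.000262). All α9k1-naive libraries were below all GFP-naive libraries. In the same family Kcnk3, the acid-sensitive background channel TASK-1, was higher by 0.94 (SE 0.24, adjusted p = 0.0123), but GFP-naive replicate 2 was low at 2.91 and the groups overlapped. Without α9k1-naive replicate 6 its log2FC was 0.89 with an adjusted p of 0.110. The other 4 members of the family had log2FCs between -0.17 and 0.43.

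Kcnj8 encodes Kir6.1, the pore of the ATP-sensitive channel of vascular mural cells. Its levels were 2.78, 3.43, 3.45, 3.30 and 3.48 in GFP-naive and ranged from 0.06 over a median of 0.38 to 0.74 in α9k1-naive. The groups were far apart, with a log2FC of -2.57 (SE 0.23, adjusted p = 1.64e-06). All 5 endothelial and mural markers in the table were lower too, and their summed level (2 to the power of each value, added) was between 101 and 144 in GFP-naive and between 22.5 and 62.5 in α9k1-naive. Rgs5, a pericyte gene, fell by 1.91 on the log2 scale (SE 0.23, adjusted p = 3.04e-05), and Acta2 had a mean level of 3.33 in GFP-naive and 0.97 in α9k1-naive. All 4 fibroblast markers were called lower as well, with a summed level between 574 and 726 in GFP-naive and between 79.4 and 262 in α9k1-naive. The part of these cells in the Kcnj8 result was not tested.

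Among the remaining inward rectifiers, Kcnj11, the Kir6.2 pore of the neuronal ATP-sensitive channel, was higher by 0.85 (SE 0.30, adjusted p = 0.058) and Kcnj12 (Kir2.2), given here after its values were seen, was lower by a log2FC of -0.57 (SE 0.15, adjusted p = 0.0139), both with overlapping groups. The difference of the deposited means of Kcnj12 was only -0.20, and that of Kcnj11 was 0.78. The calcium-activated channels Kcnn3 (SK3) and Kcnn4 (the intermediate-conductance channel SK4) rose by a log2FC of 0.72 (SE 0.18, adjusted p = 0.0094) and 0.60 (SE 0.14, adjusted p = 0.0076). Kcnn3 ranged from 4.11 to 4.36 in GFP-naive and from 4.76 to 5.30 in α9k1-naive, and Kcnn4 from 5.16 to 5.50 and from 5.71 to 6.17, in each case without overlap. Kcnn4 is also a channel of macrophages, and 7 of 10 macrophage markers in the table were called higher in the same comparison, their summed level lying between 225 and 321 in GFP-naive and between 546 and 816 in α9k1-naive. Their part in the Kcnn4 result was not tested.

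Kcnh6, an ERG-type channel, was higher by 0.89 (SE 0.34, adjusted p = 0.074), without overlap between levels of 3.23 to 4.50 and 4.67 to 5.07. Kcnrg was lower by a log2FC of -0.90 (SE 0.24, adjusted p = 0.0166), with overlap. Kcnh6 was called in 13, Kcnj11 in 16 and Kcnrg in 18 of 19 fits that each left out 1 library, and Kcnn3, Kcnn4, Kcns1, Kcnv1, Kcna1, Kcna2, Kcnab1, Kcnd1, Kcnip3, Kcnk1 and Kcnj8 in every one. Hcn2 was the remaining gene called lower and is described with the HCN genes. The count of 5 members called higher was 2 without α9k1-naive replicate 6, and 3 without either GFP-naive replicate 1 or GFP-crush replicate 3.

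**Figure D2:**
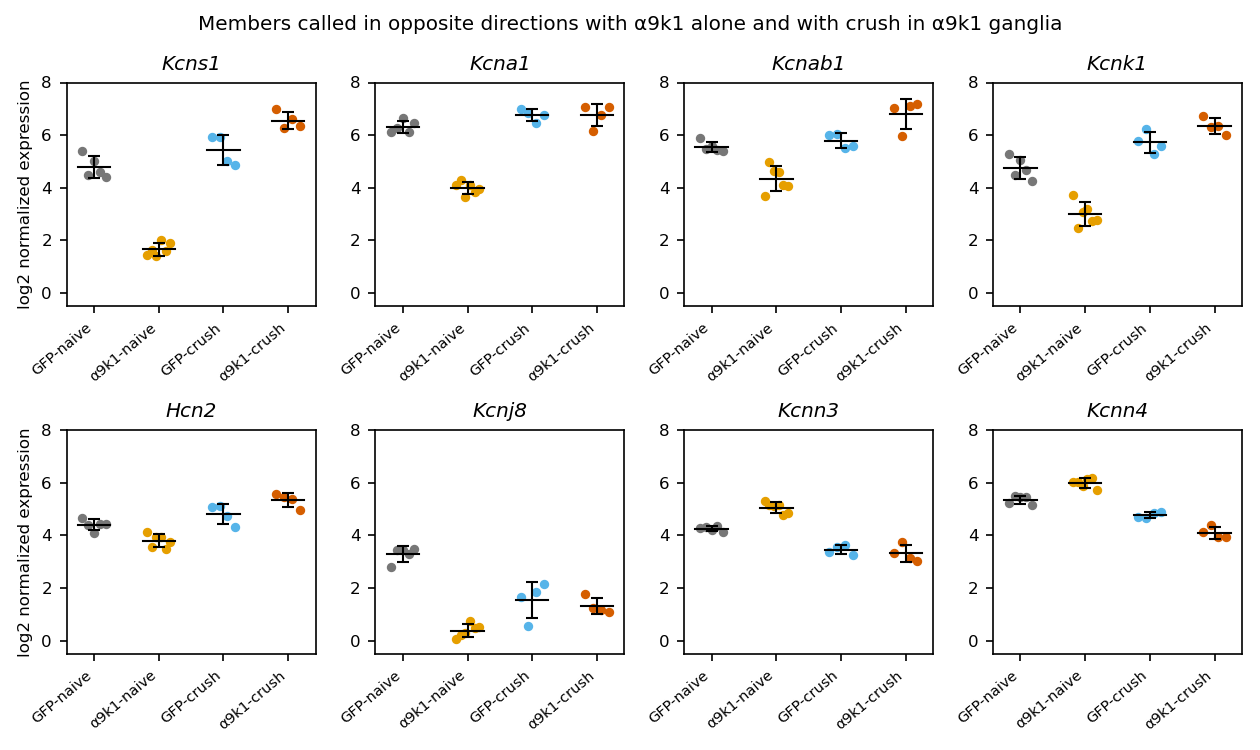
Levels of the 8 members called in opposite directions in the 2 comparisons that share the α9k1-naive libraries (y axis log2 normalized expression as deposited). Points are libraries, lines are means and whiskers are the SD. Kcns1 lay between 1.41 and 2.03 in α9k1-naive and between 6.28 and 6.98 in α9k1-crush, whereas Kcnn4 lay between 5.71 and 6.17 and between 3.92 and 4.39.

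Dorsal root crush without integrin was addressed by GFP-crush versus GFP-naive. Of the 45 members, 4 were called higher (8.89%), against 7.39% of all genes, and 7 were called lower (15.6%), against 15.7% of all genes. Both shares were near those of all genes, and the median log2FC of the members was -0.11, against -0.08. Genes called higher included Kcnk1, Kcnj11 and Hcn2, and Kcnj8, Kcna4, Kcnj10, Kcnn3, Kcnn4, Kcnc4 and Hcn3 were called lower. The split moved with the scaling of the libraries, being 6 higher and 5 lower with quantile normalization or median-centred libraries and 7 and 5 with the trend over GC content and length removed. Among all called genes, 32.0% were higher in the fit as reported and 46.8%, 60.7% and 51.4% under these 3 scalings. Median-centring moved the median log2FC of all genes from -0.08 to 0.06, and that of the members from -0.11 to 0.03. With GFP-crush and GFP-naive alone in the fit, 0 members were called in either direction. That fit holds fewer libraries, and the share of all genes called in it is not given here. The loss therefore cannot be read as particular to the channels.

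Hcn2, the cyclic AMP-sensitive subunit of small neurons, was higher by 0.58 (SE 0.20, adjusted p = 0.0681) with overlapping levels, and Hcn3 was lower by a log2FC of -0.47 (SE 0.18, adjusted p = 0.0887), also with overlap. Hcn2 was called in 13 and Hcn3 in 8 of 19 fits that each left out 1 library. In the other alternatives, Hcn2 was called in 8 of 9 and Hcn3 in 2 of 9. Of the exon bases of Hcn3, 17.1% overlap Pklr on the other strand, which these libraries without strand information cannot tell apart.

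Kcnk1, which was lower with α9k1 alone, was higher after crush in GFP ganglia by 1.22 (SE 0.31, adjusted p = 0.0183). Its levels in GFP-crush were 5.79, 6.25, 5.27 and 5.58, of which the lowest was within the range of GFP-naive. Beside Kcnk1, 4 of 8 pan-neuronal markers (Nefl, Snap25, Tubb3 and Uchl1) and 3 of 8 markers of large-diameter neurons (Nefh, Pvalb and Runx3) were called higher and 0 lower, and their part was not tested. Kcnj11 was higher by 0.90 (SE 0.30, adjusted p = 0.0613), with levels of 2.74 to 3.23 above the 1.83 to 2.70 of GFP-naive. It was called in 15 of 19 fits that each left out 1 library, not without GFP-naive replicate 3, α9k1-naive replicate 4 or GFP-crush replicates 2 or 4, where its log2FC was 0.71, 0.85, 0.81 and 0.85. The count of 4 members called higher was 2 without GFP-naive replicate 2 or 3, α9k1-naive replicate 4 or GFP-crush replicate 2.

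Kcna4 encodes Kv1.4, the A-type subunit of small nociceptors. Its levels in GFP-crush were 3.34, 1.65, 2.49 and 1.70, against 2.93 to 4.03 in GFP-naive, and the log2FC was -1.65 (SE 0.43, adjusted p = 0.0208), with GFP-crush replicate 1 inside the range of GFP-naive. Beside it, 1 of 5 non-peptidergic nociceptor markers (P2rx3) and 0 of 4 peptidergic markers were called lower. Kcnn3 fell by 0.74 on the log2 scale (SE 0.18, adjusted p = 0.0142), with levels of 3.36, 3.56, 3.62 and 3.26, and Kcnn4 fell by 0.57 (SE 0.14, adjusted p = 0.0175), with levels of 4.70, 4.65, 4.84 and 4.87. Both were below every GFP-naive library. Beside Kcnn4, 7 of 10 macrophage markers were called higher. Kcnc4 (Kv3.4) had a log2FC of -0.53 (SE 0.21, adjusted p = 0.0952) with overlap. It was called in 6 of 19 fits that each left out 1 library and in 0 of 8 other alternatives.

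Kcnj10 encodes Kir4.1, the potassium-buffering channel of satellite glia. Its levels were 4.42, 4.05, 4.24, 4.33 and 4.17 in GFP-naive and 3.43, 3.27, 4.17 and 3.33 in GFP-crush, and it fell by 0.88 on the log2 scale (SE 0.17, adjusted p = 0.00364). Only GFP-crush replicate 3 was within the range of GFP-naive. Fabp7, a satellite glia gene, fell by 1.05 in the same comparison (SE 0.14, adjusted p = 0.000371). The summed level of 12 glial markers, most of it Apoe, was between 57937 and 74928 in GFP-naive and between 36637 and 46067 in GFP-crush, with 4 markers called lower and 1 higher. Kcnj8 fell by 1.90 (SE 0.23, adjusted p = 0.000188) to levels of 1.65, 0.56, 1.83 and 2.16, together with 3 of 5 endothelial and mural markers and 3 of 4 fibroblast markers, the latter with a summed level between 228 and 282. The summed level of the endothelial and mural markers, between 75.6 and 143, overlapped that of GFP-naive. The part of these cells in either result was not tested.

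**Figure D3:**
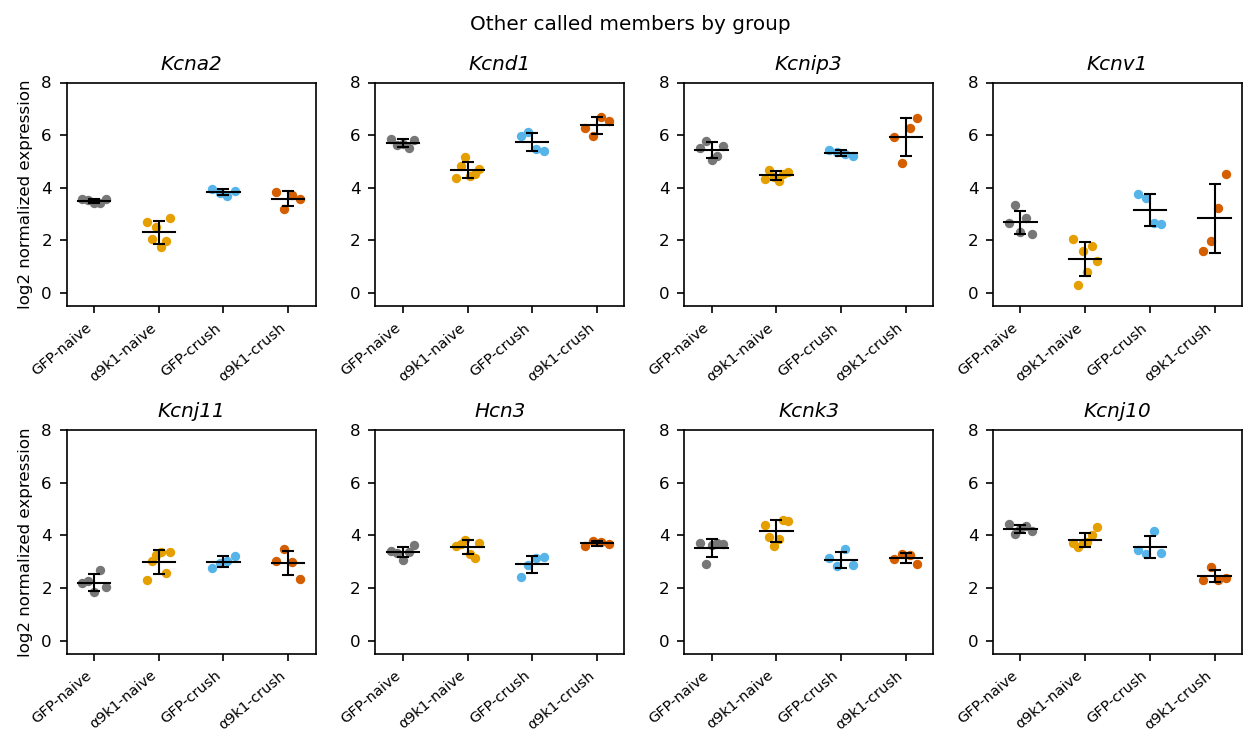
Levels of 8 further called members by group (y axis log2 normalized expression as deposited, points are libraries, lines are means and whiskers are the SD). Kcna2, Kcnd1 and Kcnip3 were lower in each α9k1-naive library than in any GFP-naive library, Kcnj11 was higher in each GFP-crush library than in any GFP-naive library, and Kcnj10 lay between 2.30 and 2.78 in α9k1-crush.

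The effect of crush in ganglia with integrin was given by α9k1-crush versus α9k1-naive. Of the 45 members, 6 were called higher (13.3%), against 4.47% of all genes, and 3 were called lower (6.67%), against 5.27% of all genes. The median log2FC of the members was 0.36 and that of all genes was 0.00. Kcns1, Kcnk1, Kcna1, Kcnab1, Kcnj8 and Hcn2 were called higher, and Kcnn3, Kcnn4 and Kcnj10 were called lower. With α9k1-crush and α9k1-naive alone in the fit, which holds fewer libraries, only Kcns1 and Kcnn3 of the members were called. The share of all genes called in that fit is not given here.

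The levels of Kcns1 in α9k1-crush were 6.98, 6.28, 6.63 and 6.34, and all were far above the highest α9k1-naive library at 2.03. The log2FC was 4.95 (SE 0.57, adjusted p = 0.000583). Kcnk1 had levels of 6.74, 6.32, 6.34 and 6.02, against at most 3.73, and a log2FC of 3.05 (SE 0.56, adjusted p = 0.00672). In the annotation 8.01% of its exon bases overlap an antisense gene. Kcna1 had levels of 7.06, 6.15, 6.78 and 7.08, against at most 4.30, and a log2FC of 2.99 (SE 0.41, adjusted p = 0.00147).

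Kcnab1 had levels of 7.04, 5.96, 7.09 and 7.17, so that α9k1-crush replicate 2 stood apart from the other 3 libraries but still above the highest α9k1-naive library at 4.99. Its log2FC was 2.43 (SE 0.57, adjusted p = 0.0236), and it was not called without α9k1-naive replicate 4 (adjusted p = 0.130). Hcn2 had levels of 5.57, 5.44, 5.40 and 4.96, against at most 4.12, and a log2FC of 1.10 (SE 0.36, adjusted p = 0.094). It was called in 6 of 19 fits that each left out 1 library. Kcnd1 had levels of 5.98 to 6.70, against at most 5.16, and its log2FC of 1.12 (SE 0.38, adjusted p = 0.101) missed the threshold, but passed it without any 1 of 6 libraries, among them α9k1-crush replicate 2 (1.25, adjusted p = 0.0494).

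Kcnj8 had levels of 1.76, 1.24, 1.14 and 1.09 in α9k1-crush, above the α9k1-naive maximum of 0.74. The difference of the deposited means was 0.93 and the log2FC at equal covariates was 2.17 (SE 0.42, adjusted p = 0.00855), so its size depended on the covariates. Of the 5 endothelial and mural markers, Rgs5 and Flt1 were called higher in the same comparison, with log2FCs of 1.54 (SE 0.41) and 1.64 (SE 0.55), although the summed level of the 5 was between 20.5 and 63.7 in α9k1-crush and thus as low as in α9k1-naive. Of the 4 fibroblast markers, Col1a1, Col1a2 and Dcn were called higher, and their summed level was between 168 and 252 in α9k1-crush. The part of these cells was not tested.

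Kcnn3 fell by 1.98 on the log2 scale (SE 0.32, adjusted p = 0.00357) to levels of 3.34, 3.75, 3.13 and 3.01, all below the lowest α9k1-naive library at 4.76. Kcnn4 fell by 1.55 (SE 0.25, adjusted p = 0.00399) to 4.12, 4.39, 3.92 and 3.93, below 5.71. Kcnj10 fell by 1.32 (SE 0.30, adjusted p = 0.0188) to 2.31, 2.78, 2.30 and 2.39, below 3.56. Beside Kcnj10, the summed level of the glial markers was between 82764 and 117177 in α9k1-naive and between 23842 and 37734 in α9k1-crush, and Fabp7 fell by 2.28 (SE 0.26). Beside Kcnn4, 2 of 10 macrophage markers were called higher and 0 lower. The part of glia and macrophages in these results was not tested.

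The comparison of the regenerating group with its injured control, α9k1-crush versus GFP-crush, called 0 of the 45 members higher, against 0.728% of all genes, and 0 lower, against 0.182% of all genes. In this limma fit the smallest adjusted p among the members was 0.268, for Kcna4, and 2 members had an unadjusted p under 0.05. The share of all genes under that level is not given here. The median SE of the members was 0.62, against 0.29 for α9k1-naive versus GFP-naive, so that this comparison was the less precise one. Kcns1 had a log2FC of 0.97 (SE 0.69, adjusted p = 0.725), Kcna1 of 0.21 (SE 0.50), Kcnk1 of -0.23 (SE 0.67) and Kcnab1 of 0.54 (SE 0.69). The sign of Kcnk1 turned with the covariates, as its deposited means differed by 0.63 (6.35 in α9k1-crush and 5.72 in GFP-crush). Without GFP-naive replicate 4, Kcna4 was called higher, with a log2FC of 3.49 (adjusted p = 0.0809) in place of 3.03 (SE 0.93). Its deposited means differed by only 1.01 (3.31 and 2.30), with overlapping groups, so the size rested on the covariates.

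Without the covariates, 17 members were called higher and 3 lower in this comparison, Kcnj10 and Kcnn4 among them. These are 37.8% and 6.67% of the members, against 29.6% and 28.3% of all genes. Among those higher, the deposited levels of Kcnma1, the pore of the large-conductance BK channel, were 3.45, 3.93, 3.56 and 3.40 in α9k1-crush and 2.73, 2.49, 2.38 and 2.55 in GFP-crush. Kcnab2 had levels of at least 6.75 in α9k1-crush and of at most 6.23 in GFP-crush, and Kcns1 of 6.28 to 6.98 and of 4.87 to 5.93. The groups did not overlap for these 3 genes, which were chosen after their values were seen. The deposited means differed by 1.05 for Kcnma1, 0.88 for Kcnab2 and 1.12 for Kcns1. At equal covariates the log2FCs were 0.51 (SE 0.48) and -0.05 (SE 0.38) for Kcnma1 and Kcnab2, whereas that of Kcns1 stayed near its difference of means at 0.97 with an SE of 0.69.

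**Figure D4:**
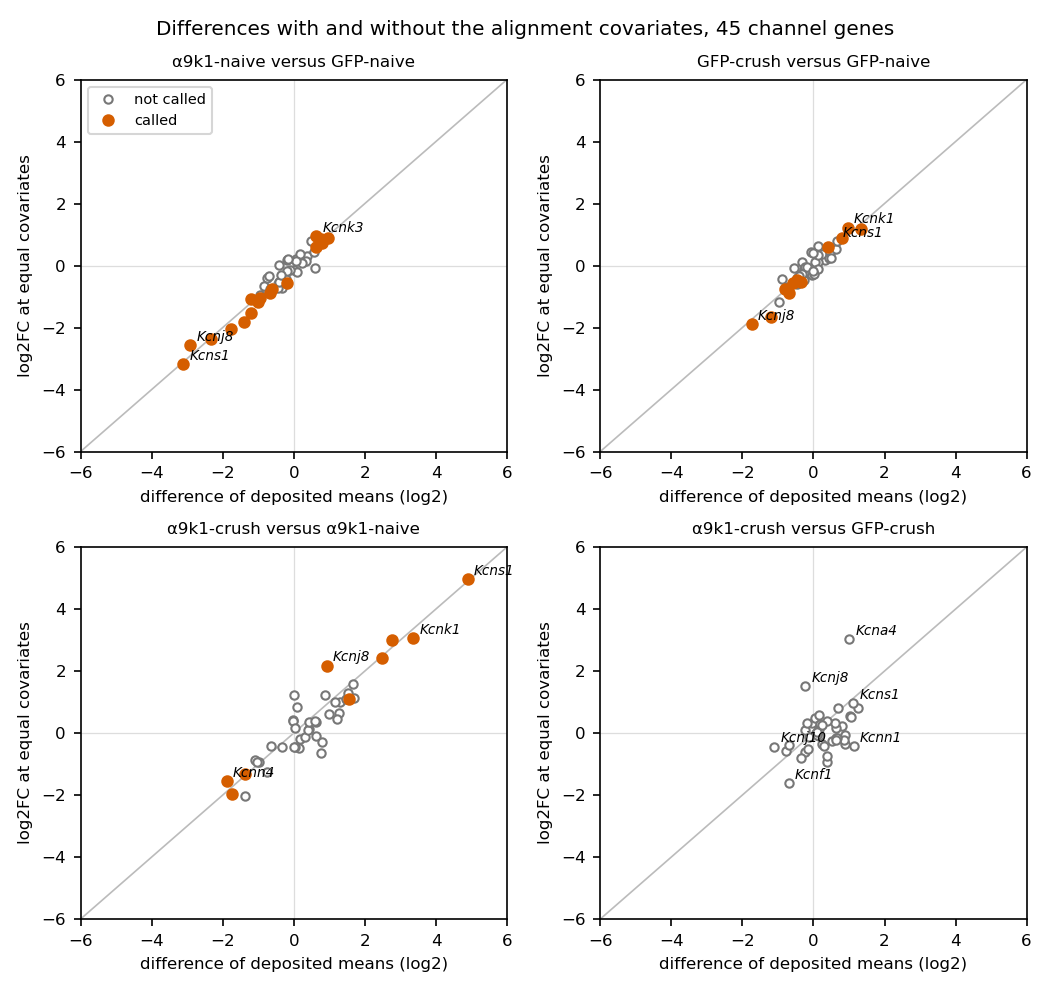
Difference between deposited group means (x axis, log2) and log2FC at equal covariates (y axis) of the 45 channel genes in each comparison, with the line of equality. Filled points were called. The median distance between both values was 0.16 in α9k1-naive versus GFP-naive, where the sign turned for 5 genes, and 0.45 in α9k1-crush versus GFP-crush, where it turned for 20.

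The interaction, the effect of α9k1 after crush minus its effect without crush, was called positive for 3 members (6.67%), against 1.35% of all genes, and negative for 0, against 0.847% of all genes. Among all genes called for the interaction, 61.5% were positive, and 48.9%, 41.4% and 43.8% with quantile normalization, median-centred libraries or the GC and length trend removed. Under each of these 3 scalings the same 3 members were called positive and Kcnn3 and Kcnn4 negative. In this limma fit 11 members had an unadjusted p under 0.05, for which the share of all genes is not given here. The 3 genes were Kcns1 with a difference of 4.15 (SE 0.66, adjusted p = 0.0102), Kcnj8 with 4.07 (SE 0.48, adjusted p = 0.00184) and Kcna1 with 2.59 (SE 0.47, adjusted p = 0.0188). The effect of α9k1 on Kcns1 was a log2FC of -3.18 without crush and of 0.97 after it, and on Kcna1 of -2.38 and 0.21. On Kcnj8 it was -2.57 and 1.50 (SE 0.50, adjusted p = 0.337), although the deposited means of Kcnj8 after crush differed by -0.24 (1.31 in α9k1-crush and 1.55 in GFP-crush). Without covariates its interaction was 2.67. Beside it, the interaction was called positive for 1 of 5 endothelial and mural markers, Rgs5 with 2.76 (SE 0.47, adjusted p = 0.0133), and for 3 of 4 fibroblast markers, Col1a1, Col1a2 and Dcn, and their part was not tested. Kcnk1 with 1.83 (SE 0.64, adjusted p = 0.199), Kcnab1 with 2.06 (SE 0.65, adjusted p = 0.158) and Kcnd1 with 1.02 (SE 0.43, adjusted p = 0.302) were not called. Kcnn3 and Kcnn4 had values of -1.24 (SE 0.37) and -0.98 (SE 0.29), each with an adjusted p of 0.133. Without α9k1-crush replicate 2 there were 5 positive calls, with Kcnab1 (2.33, adjusted p = 0.0481) and Kcnip3 (1.57, adjusted p = 0.0584) in addition. In the same fit Kcnn3 (-1.34) and Kcnn4 (-1.06) were called negative, as was Kcnn4 (-1.01) without α9k1-naive replicate 6. Kcna4 was called positive without GFP-naive replicate 1 (3.42) or 4 (3.93).

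Among the HCN genes, Hcn2 averaged 4.40 ± 0.21 (SD, n = 5) in GFP-naive and 4.81 ± 0.36 (n = 4) in GFP-crush. With α9k1 it averaged 3.79 ± 0.24 (n = 6) in naive ganglia and 5.34 ± 0.26 (n = 4) after crush, and it fell by 0.77 with α9k1 alone (SE 0.20, adjusted p = 0.0141). Its levels in α9k1-naive were 3.47 to 4.12, which overlap the 4.08 to 4.67 of GFP-naive in 1 library each. Hcn3 averaged 3.36 ± 0.20, 2.89 ± 0.34, 3.54 ± 0.26 and 3.70 ± 0.09 in the same order of groups. Hcn3 had log2FCs of 0.24 (SE 0.18) for α9k1-naive versus GFP-naive and of -0.47 (SE 0.32) for α9k1-crush versus α9k1-naive, and Hcn2 and Hcn3 had -0.25 (SE 0.44) and 0.24 (SE 0.39) for α9k1-crush versus GFP-crush. None of these was called.

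The Kv2 and Kv7 families held no called member. Kcnb2, the Kv2 subunit and known partner of the silent subunits, had a log2FC of -0.66 (SE 0.34, adjusted p = 0.183) with α9k1 alone and of 1.58 (SE 0.61, adjusted p = 0.152) with crush in α9k1 ganglia. Both Kv7 genes, Kcnq5 and the auxiliary subunit Kcne3, were not called in any comparison. Of the 8 calcium- or sodium-activated genes, 6 were not called, among them Kcnma1, its β subunits Kcnmb2 and Kcnmb4, and the sodium-activated Kcnt1. Kcnmb2 had the most negative log2FC of the 45 in α9k1-crush versus α9k1-naive, -2.04, with an SE of 0.88 (adjusted p = 0.196). In the K2P family, Kcnk2 (TREK-1), Kcnk4 (TRAAK), Kcnk12 and Kcnk18 (TRESK) were not called, with log2FCs between -1.24 and 0.60.

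Proteins that assemble with or anchor these channels were followed as a list of 22 genes, 15 of which were in the table. With α9k1 alone 6 of the 15 were called lower and 1 higher, against 17.6% and 11.4% of all genes. Those called lower included Adam22, a partner of Kv1 channels beside the nodes, with a log2FC of -1.19 (SE 0.20, adjusted p = 0.000611), Ank3, the ankyrin of the axon initial segment, with -0.81 (SE 0.20, adjusted p = 0.0093), and the Kv4 auxiliary subunits Dpp10, with -0.80 (SE 0.22, adjusted p = 0.0193), and Dpp6, with -0.68 (SE 0.28, adjusted p = 0.0976). The remaining 2 were Calm3 and Vapa, which fell by 0.34 and 0.26. In GFP-crush versus GFP-naive, Vapa was called higher and Pex5l, an HCN trafficking protein, fell by 0.61 (SE 0.19, adjusted p = 0.0466). In α9k1-crush versus α9k1-naive, only Calm3 was called, higher by 0.70 (SE 0.19, adjusted p = 0.0438), and none was called in α9k1-crush versus GFP-crush or for the interaction. Of the known repressors of channel genes, Ehmt2 and Dnmt3a were in the table, and neither was called with α9k1 alone (log2FCs of 0.24 and 0.27). Dnmt3a fell by 0.62 in GFP-crush (SE 0.18, adjusted p = 0.0311), and Ehmt2 by 1.12 in α9k1-crush versus α9k1-naive (SE 0.32, adjusted p = 0.0575).

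Of 8 genes of myelinated large-diameter neurons and proprioceptors, Nefh fell by 2.32 on the log2 scale (SE 0.25, adjusted p = 1.17e-05) and Pvalb by 1.46 (SE 0.48, adjusted p = 0.0399) with α9k1 alone, whereas Spp1 rose by 1.22 (SE 0.23, adjusted p = 0.00157). The other 5, Etv1, Runx3, Ntrk3, Whrn and Cntnap2, were not called. In α9k1-crush versus α9k1-naive, Nefh rose by 2.79 (SE 0.45, adjusted p = 0.00376) and Pvalb by 2.97 (SE 0.86, adjusted p = 0.0558), and Spp1 was called lower. Of 8 pan-neuronal genes, Nefl and Snap25 were called lower and Prph higher with α9k1 alone, and the summed level of the 8 was between 8806 and 11242 in GFP-naive, 6511 and 8288 in α9k1-naive, 12969 and 17115 in GFP-crush and 12642 and 16722 in α9k1-crush. Among 7 axotomy genes, Atf3, Gal and Gadd45a were called higher and Npy lower with α9k1 alone. In GFP-crush versus GFP-naive, Npy was called higher and Atf3 lower. In α9k1-crush versus α9k1-naive, Atf3 and Gal were called lower and 0 higher. Atf3 was called higher in α9k1-crush versus GFP-crush, and Gal was called negative for the interaction. Of 12 markers of satellite glia and Schwann cells, 6 were called lower with α9k1 alone, among them the myelin genes Prx, Mbp and Pmp22, and 3 were called higher (Apoe, Fabp7 and Glul). In α9k1-crush versus α9k1-naive Prx, Mbp and Pmp22 were called higher and Apoe, Fabp7 and Glul lower, and for the interaction Prx was called positive and Fabp7 negative. With α9k1 alone 0 of 4 peptidergic and 0 of 5 non-peptidergic nociceptor markers were called. Fam19a4, the 1 C-low threshold mechanoreceptor marker in the table, was called lower there. The part of these shifts in the channel results was not tested.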

How the data were processed

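RNA-seq was analysed in 19 libraries of FACS-sorted DRG cells, grouped by their labels. According to the study's methods, the authors made SMART-Seq v4 libraries, aligned reads to mm10 with STAR, counted them with Salmon, removed genes with low counts, took log2 with a small pseudocount and normalized with cqn. The authors deposited these log2 values without gene names, and the gene order is that of the deposited gene list. Under it Fermt1 ranked 1 of 12629 genes for the difference between α9k1 and GFP libraries, and 8 mitochondrial genes had a median percentile of mean level of 89.5. The fold changes (log2) and p-values of the authors' own comparisons were deposited beside it and were not used. The library metrics were deposited by the authors as Picard counts, fractions, percentages and ratios, and some duplication columns hold the values of a neighbouring metric. Annotated strands held 49.9% to 50.0% of reads, so the libraries are unstranded.

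One model was fitted with limma 3.58.1 in R 4.3.3 (lmFit, contrasts, eBayes), with 4 group means, 3 covariates from 48 metrics and 12 residual degrees of freedom. Adjusted p-values are Benjamini-Hochberg over all 12629 genes. A batch term of the study is not in the sources used here and was left out. The fit was tested on simulated data. Tables and figures were made with Python 3.11.15, pandas 2.3.3, numpy 2.4.6 and matplotlib 3.10.9. Members, families and marker and partner lists were chosen with earlier results of these data known. Named genes were up to 10 called members in each direction and comparison, those called for the interaction, Hcn genes, and the member with the highest level in each family. Some items under this rule are not reported here. Alternatives were no covariates, only the groups compared, quantile normalization, median-centred libraries, removal of the GC and length trend (12610 genes), a filter removing the lowest 25% of genes, array weights, a trended robust eBayes, the replicate block, and leaving out each library.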

Additional observations from a re-analysis of the deposited data

Results flagged for a closer look

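Among 104 groups of 26 named genes, 5 held a library far from the others of its group by Dixon's test, which by chance picks out about 1 in 20 groups. Kcnab1 was 5.96 in α9k1-crush replicate 2, and the nearest library of the group was at 7.04. Kcnip2 was 7.17 in GFP-naive replicate 1 (nearest 6.49), and Kcnj8 was 2.78 in the same library (nearest 3.30). Kcnk3 was 2.91 in GFP-naive replicate 2 (nearest 3.64), and Kcnrg was 1.80 in GFP-crush replicate 4 (nearest 2.59).

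The test of the interaction itself found 3 members whose difference between α9k1 and GFP was not the same with and without crush. The difference was 4.15 for Kcns1, 4.07 for Kcnj8 and 2.59 for Kcna1, each with an adjusted p under the threshold in limma. Beside Kcnj8, the interaction was called positive for 1 of 5 endothelial and mural markers (Rgs5, 2.76) and 3 of 4 fibroblast markers, and the part of those cells was not tested.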

How the results depend on the processing

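Of 37 calls of a named gene in a comparison, 27 held in each of 19 fits that left out 1 library, 15 held in each other alternative, and 15 held in all. Leaving out 1 library gave 2 to 5 members called higher and 12 to 13 lower in α9k1-naive versus GFP-naive, 0 to 1 and 0 in α9k1-crush versus GFP-crush, 2 to 6 and 5 to 8 in GFP-crush versus GFP-naive, 4 to 9 and 3 to 4 in α9k1-crush versus α9k1-naive, and 3 to 5 and 0 to 2 for the interaction. Without covariates, 17 members were called higher and 3 lower in α9k1-crush versus GFP-crush, 7 higher (15.6%, against 11% of all genes) in GFP-crush versus GFP-naive, 22 higher and 9 lower in α9k1-crush versus α9k1-naive, and 22 and 5 for the interaction. In the last 2, these fits called 28.5% and 27.1% and 23.3% and 16.1% of all genes. With only the groups compared, there were 3 higher in α9k1-naive versus GFP-naive, 0 higher and 0 lower in GFP-crush versus GFP-naive, and 1 and 1 in α9k1-crush versus α9k1-naive. These fits hold fewer libraries, and the shares of all genes called in them are not given here. The GC and length trend removal gave 7 higher in GFP-crush versus GFP-naive, and the low filter, which removes low members from the test, gave 4 lower. Quantile normalization, median-centring, the GC and length trend and array weights each gave 2 negative interactions, Kcnn3 and Kcnn4.

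Among the named results, signs turned for Hcn2 (-0.38) and Kcnc4 (0.044) in GFP-crush versus GFP-naive with only the groups compared. They also turned for Hcn2 in α9k1-crush versus GFP-crush without covariates (0.53) and with the replicate block (0.045), for Hcn3 there with the replicate block (-0.36), and for Hcn3 in α9k1-crush versus α9k1-naive without covariates (0.16). Leaving out 1 library, Hcn3 in α9k1-crush versus GFP-crush ranged from -0.00032 to 0.36. In α9k1-crush versus GFP-crush, where no member was called, the sign of the log2FC differed from that of the deposited means for 20 members, Kcnk1 and Kcnj8 among them. The cause of these changes was not tested.

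Replicate numbers did not pair the samples, as 25 same-numbered pairs had a median correlation of deviations of 0.02 and 4 were over 0.1, and 5 of 16 libraries correlated best with a library of their own number. With the replicate block, 2 members were called higher in α9k1-naive versus GFP-naive and 3 higher in α9k1-crush versus α9k1-naive (Kcns1, Kcnk1 and Kcna1), and the interaction of Kcna1 was not called. The depth behind single values is unknown.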
